A study of Saccharomyces cerevisiae with 8 samples.

Results

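The transcripts described here encode proteins of the mitochondrial ribosome of the budding yeast *Saccharomyces cerevisiae*. They were chosen by gene symbol alone, as all genes named MRPL, MRPS, MRP or RSM followed only by digits in the annotation of the array's probe sets, and they number 66 of the 5449 named genes measured. Each was measured by 1 probe set. By an assignment made by hand from general knowledge, and not by the files, 37 of the 66 are proteins of the large subunit and 27 of the small subunit. The remaining pair are *RSM22*, which encodes an assembly factor of the small subunit, and *MRP8*, whose product is, despite its symbol, not held to be a ribosomal protein. Total RNA of 2 strains was hybridised to 8 Affymetrix arrays: PY1, of unstated genotype, and a strain carrying the temperature-sensitive allele met30-6, which the labels also call py283. Both strains were grown in YPDA to mid-log phase at 25 °C, and cells were collected after 1 h more at 25 °C or after 1 h at 35 °C, so that the 4 groups hold 2 arrays each. *MET30* encodes the substrate-binding subunit of a ubiquitin ligase that restrains the sulfur amino acid activator Met4, and the study asked which transcripts mark the loss of its activity. Whether the 2 arrays of each group stem from separate cultures is not stated, and the p-values therefore cover the spread among these samples only, which may be technical.

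Mitochondria translate a small set of hydrophobic proteins, mostly core subunits of the respiratory chain and of ATP synthase, on ribosomes of their own. In yeast the rRNAs of these ribosomes and the protein Var1 are encoded by mitochondrial DNA, whereas the other proteins are encoded in the nucleus, made in the cytosol and imported. Many of them descend from bacterial ribosomal proteins and others are found only in mitochondrial ribosomes, and the messages of many are bound by Puf3, an RNA-binding protein that acts on nuclear messages for mitochondrial proteins. None of the 10 genes of mitochondrial DNA looked for (among them *VAR1*, *COX1* and *COB*) has a probe set named for it here, so that the products of mitochondrial transcription were not analysed here.

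Values are log2 expression values as deposited. Array medians over all 5449 genes lay between 10.982 and 11.11, and the arrays of a group correlated across genes at Pearson's r between 0.9927 and 0.9951. The 66 genes had means over the 8 arrays from 10.37 to 12.98, and the SD between the arrays of a group had a median of 0.041 and a highest value of 0.168. The median over the 66 genes read 11.39 and 11.37 on the PY1 arrays at 25 °C, 11.66 and 11.69 in PY1 at 35 °C, 11.55 and 11.59 in met30-6 at 25 °C, and 11.73 and 11.69 in met30-6 at 35 °C. The PY1 arrays at 25 °C were thus the lowest pair, and the other 3 groups lay above them without overlap. The mean in PY1 at 25 °C was the lowest of the 4 group means for 59 of the 66 genes, and the mean in met30-6 at 35 °C was the highest for 42. Neither count was made over all genes. Levels are not compared between genes, since different probe sets respond differently. MATa-specific transcripts, used as a check of the cells, summed on the linear scale to 30600–35400 in PY1 at 25 °C, 24300–26000 in PY1 at 35 °C, 29500–30900 in met30-6 at 25 °C and 29800–32600 in met30-6 at 35 °C, with 7 of 7 measured and none at 0. The 5 MATα-specific transcripts summed to between 1070 and 1530 and the 6 sporulation transcripts to between 635 and 742 in all groups, none at 0. These sums moved between groups too (the MATa sum was lowest where PY1 was at 35 °C), and their part in the values below was not tested.

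**Figure D1:**
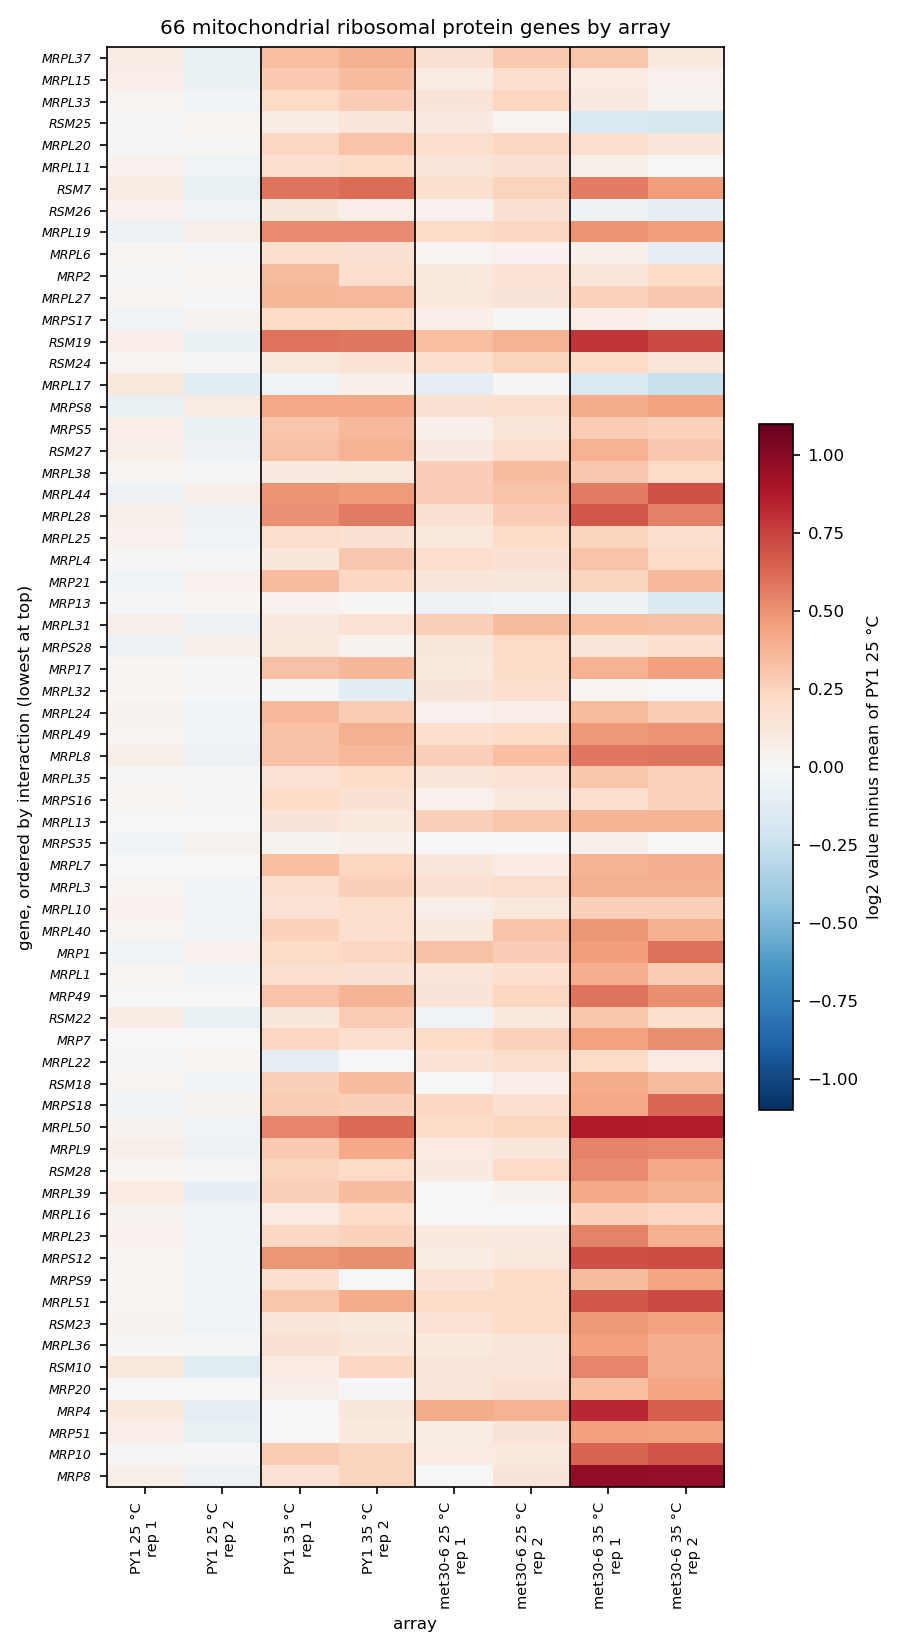
Log2 value of each of the 66 genes (rows, ordered by the interaction, lowest at top) on each of the 8 arrays (columns), minus the mean of that gene's 2 PY1 arrays at 25 °C; red is higher and blue lower. Most rows are red on the PY1 arrays at 35 °C and on both pairs of met30-6 arrays, and the few blue cells outside the PY1 25 °C columns belong to genes such as RSM25, MRPL17 and MRP13.

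In PY1, 39 of the 66 transcripts rose after 1 h at 35 °C and 0 fell, whereas of all 5449 genes 26.2% were called higher and 10.4% lower (limma, adjusted p under 0.05). At an unadjusted p under 0.05 the counts were 48 higher and 0 lower. In such bulk samples, fewer cells of a kind and less RNA per cell cannot be told apart. The median difference was 0.22 on the log2 scale, beside 0.075 over all genes, the range ran from −0.07 to 0.60, and 0 of the 66 changed by 2-fold or more, beside 202 of all genes. Both arrays at 35 °C lay above both arrays at 25 °C for 56 of the 66, a count not made over all genes. The difference was above 0 for 64 of the 66, beside 3458 of all 5449 genes. Among the 3258 genes with means in the range of the 66, fitted alone as a check added after the data were seen, 28.8% were higher and 14.6% lower. Genes of both subunits rose, 23 of 37 of the large and 16 of 27 of the small, with medians of 0.23 and 0.22.

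Among large-subunit genes, *MRPL50*, the counterpart of bacterial L9, read 11.27 and 11.20 at 25 °C and 11.77 and 11.86 at 35 °C in PY1. In met30-6 *MRPL50* read 11.44 and 11.47 at 25 °C and 12.11 and 12.10 at 35 °C. It was higher at 35 °C than at 25 °C in both strains without overlap, by 0.58 ± 0.06 (SE) in PY1 (limma, adjusted p = 0.000577). *MRPL28*, a protein without a bacterial counterpart, read 11.22 and 11.08 at 25 °C and 11.65 and 11.72 at 35 °C in PY1. In met30-6 *MRPL28* read 11.32 and 11.42 at 25 °C and 11.83 and 11.70 at 35 °C. Its difference in PY1 was 0.53 ± 0.08 (limma, adjusted p = 0.00266). *MRPL19*, the counterpart of bacterial L11 at the factor-binding side of the subunit, read 10.87 and 11.003 at 25 °C and 11.46 and 11.46 at 35 °C in PY1. In met30-6 *MRPL19* read 11.15 and 11.17 at 25 °C and 11.43 and 11.40 at 35 °C. The PY1 arrays at 25 °C were its lowest, and the PY1 difference was 0.52 ± 0.06 (limma, adjusted p = 0.00106).

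Among small-subunit genes, the largest PY1 differences belonged to *RSM7*, *RSM19* and *MRPS12*, counterparts of bacterial S7, S19 and S12, the first 2 of which lie in the head of the subunit and the last at the decoding site. *RSM7* read 11.45 and 11.28 at 25 °C and 11.96 and 11.99 at 35 °C in PY1. In met30-6 *RSM7* read 11.55 and 11.62 at 25 °C and 11.93 and 11.83 at 35 °C. Its PY1 difference was 0.60 ± 0.07, or 1.52-fold (limma, adjusted p = 0.00148). *RSM19* read 11.36 and 11.22 at 25 °C and 11.89 and 11.87 at 35 °C in PY1. In met30-6 *RSM19* read 11.62 and 11.68 at 25 °C and 12.08 and 12.02 at 35 °C. Its PY1 difference was 0.59 ± 0.06 (limma, adjusted p = 0.000946), and its met30-6 arrays at 25 °C already stood above both PY1 arrays at that temperature. *MRPS12* read 12.40 and 12.35 at 25 °C and 12.86 and 12.88 at 35 °C in PY1. In met30-6 *MRPS12* read 12.46 and 12.49 at 25 °C and 13.09 and 13.10 at 35 °C. The PY1 difference of *MRPS12* was 0.50 ± 0.05 (limma, adjusted p = 0.000692). In the yeast genome *MRPS12* and *RSM19* are neighbours, the only pair of the 66 that are; the 66 genes lie on 14 chromosomes. The 6 calls named here held under all 19 alternative settings and left-out arrays, as did 17 of the 39. Where an array of a compared group was left out, here and in the comparisons below, that group kept 1 array, which was assumed to vary like the arrays of the other groups. The count of 39 fell to 24 without PY1 25 °C replicate 2, to 25 without PY1 35 °C replicate 1 and to 19 without PY1 35 °C replicate 2, all of them higher, while the calls over all genes fell from 1998 to 1443, 1298 and 1119.

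In met30-6, 40 of the 66 transcripts rose at 35 °C and 3 fell, in a comparison in which many more genes moved: of all genes, 38.8% were called higher and 29.3% lower. The median difference of the 66 was 0.22, as in PY1, beside 0.07 over all genes, but the genes were more unequal, from −0.24 to 0.90. A difference above 0 was found for 51 rather than 64 of the 66. Of all 5449 genes, 3029 lay above 0 in met30-6 and 3458 in PY1. Among genes in the same range of means, 41.3% were higher and 34.3% lower. By size the 66 moved little in this comparison, with 0 changed by 2-fold or more against 739 of all genes. The large subunit had 23 genes higher and 1 lower, and the small subunit 16 higher and 2 lower. By call, 29 genes were higher in both strains, 10 in PY1 but not met30-6 and 11 in met30-6 but not PY1. Another 13 were called in neither, and 0 in opposite directions. This overlap was not counted over all genes. Those not called in one strain were not thereby shown to differ between strains, which is the question of the interaction below. Across the 66 genes, which are not independent replicates, the differences of the strains correlated at Pearson's r = 0.51 and Spearman's rho = 0.51. Over all 5449 genes Pearson's r was 0.52 and Spearman's rho 0.43. The strains share no array.

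**Figure D2:**
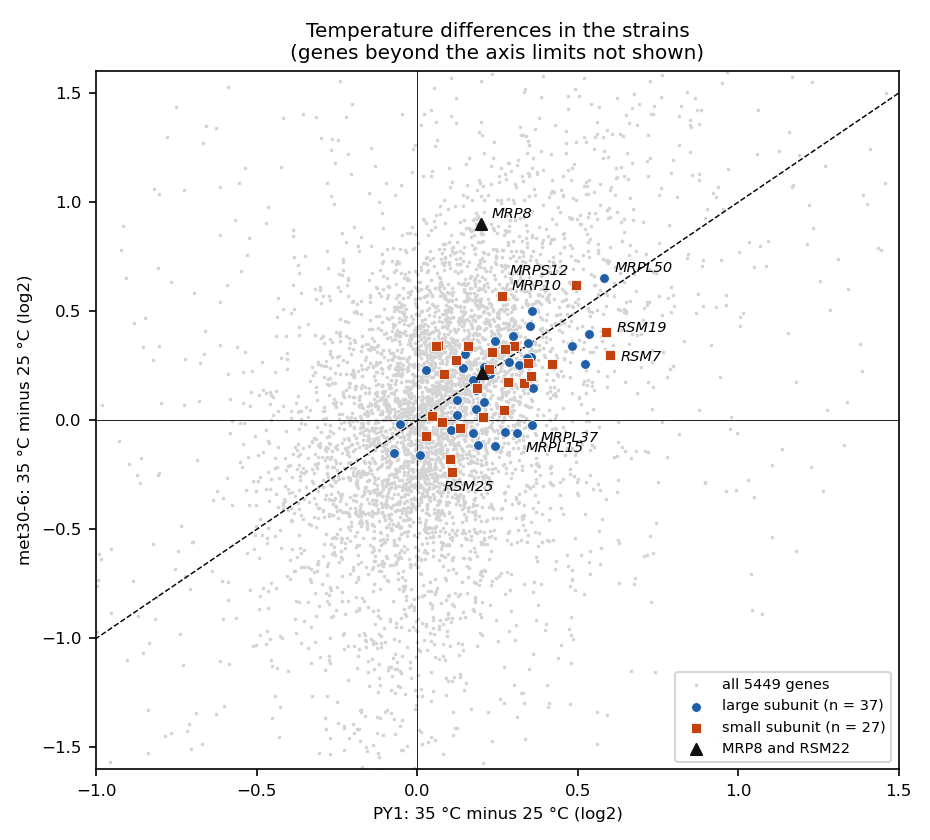
Difference between 35 °C and 25 °C in PY1 (x axis, log2) against that in met30-6 (y axis, log2) for the 37 large-subunit genes (blue circles), the 27 small-subunit genes (orange squares), MRP8 and RSM22 (black triangles) and all 5449 genes (grey dots; those beyond the axes are not drawn); the dashed line marks equal differences. Of the 66 genes, 51 lie above 0 on both axes, within a narrow part of the spread of all genes, and MRP8 stands apart at 0.20 and 0.90.

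Of the genes that rose most in met30-6, *MRPL50* and *MRPS12*, whose array values stand above, had differences of 0.65 ± 0.06 and 0.62 ± 0.05 (limma, adjusted p = 7.08e-05 and 5.35e-05). *MRP10*, a small-subunit protein of the twin CX9C type that is folded by the disulfide relay of the intermembrane space, read 11.88 and 11.86 at 25 °C and 12.14 and 12.12 at 35 °C in PY1. In met30-6 *MRP10* read 11.96 and 11.98 at 25 °C and 12.51 and 12.56 at 35 °C. The met30-6 arrays at 35 °C stood above the other 6, and the difference in met30-6 was 0.57 ± 0.05 (limma, adjusted p = 7.9e-05). *MRPL51*, a large-subunit protein found only in mitochondrial ribosomes, read 11.90 and 11.85 at 25 °C and 12.18 and 12.29 at 35 °C in PY1. In met30-6 *MRPL51* read 12.08 and 12.08 at 25 °C and 12.56 and 12.60 at 35 °C. The met30-6 difference of *MRPL51* was 0.50 (limma, adjusted p = 0.000278). *MRPL9*, the counterpart of bacterial L3, read 11.90 and 11.77 at 25 °C and 12.12 and 12.25 at 35 °C in PY1. In met30-6 *MRPL9* read 11.92 and 11.96 at 25 °C and 12.38 and 12.36 at 35 °C. The met30-6 difference of *MRPL9* was 0.43 (limma, adjusted p = 0.00129). All of these were higher at 35 °C than at 25 °C in PY1 as well.

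The 3 transcripts that fell in met30-6 were *RSM25* and *RSM26*, of the small subunit and with no bacterial counterpart, and *MRPL32*, the counterpart of bacterial L32, which is matured by the m-AAA protease of the inner membrane. *RSM25* read 10.35 and 10.39 at 25 °C and 10.45 and 10.51 at 35 °C in PY1. In met30-6 *RSM25* read 10.48 and 10.40 at 25 °C and 10.21 and 10.19 at 35 °C. The met30-6 arrays at 35 °C were below the other 6, and the met30-6 difference was −0.24 ± 0.05, or 1.18-fold lower (limma, adjusted p = 0.00685); without met30-6 25 °C replicate 1 the difference was −0.20 (adjusted p = 0.0575). *RSM26* read 11.75 and 11.65 at 25 °C and 11.83 and 11.77 at 35 °C in PY1. In met30-6 *RSM26* read 11.74 and 11.86 at 25 °C and 11.64 and 11.61 at 35 °C. The met30-6 difference of *RSM26* was −0.18 (limma, adjusted p = 0.0415). *MRPL32* read 11.56 and 11.52 at 25 °C and 11.52 and 11.42 at 35 °C in PY1. In met30-6 *MRPL32* read 11.68 and 11.72 at 25 °C and 11.57 and 11.53 at 35 °C. The met30-6 difference of *MRPL32* was −0.15 (limma, adjusted p = 0.0488). The calls of *RSM26* and *MRPL32* lay near the threshold and ended in 5 and 6 of the 8 fits that each left out 1 array. Of the 43 calls in met30-6, 23 held under every alternative run for them (18 for *MRP8*, 19 for the others), and without met30-6 25 °C replicate 1 the count was 25 higher and 1 lower.

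The strains already differed slightly at 25 °C. There 64 of the 66 transcripts had a higher mean in met30-6 than in PY1, beside 2810 of all 5449 genes. The median difference was 0.15, beside 0.0055 over all genes. But only 10 were called higher and 0 lower, beside 6.94% and 5.95% of all genes (limma, adjusted p under 0.05). Among genes in the same range of means, 9.36% were higher and 8.99% lower. At an unadjusted p under 0.05, 37 of the 66 were higher and 0 lower. Since the PY1 arrays at 25 °C enter both this comparison and the PY1 temperature comparison, the 2 results are not independent. The largest difference was that of *MRP4*, the counterpart of bacterial S2, which read 11.31 and 11.09 at 25 °C and 11.21 and 11.33 at 35 °C in PY1. In met30-6 *MRP4* read 11.61 and 11.59 at 25 °C and 12.03 and 11.86 at 35 °C. Its met30-6 arrays stood above its PY1 arrays at both temperatures, by 0.40 ± 0.09 at 25 °C (limma, adjusted p = 0.0371). The other genes with the largest values were *RSM19* (0.36), *MRPL38*, the counterpart of bacterial L14 (0.31), and *MRPL31*, found only in mitochondrial ribosomes (0.30). Next were *MRP1*, a small-subunit protein related to superoxide dismutases (0.30), and *MRPL8*, the counterpart of bacterial L17 (0.30). In each fit that left out 1 array, given next, fewer of all genes were called as well. The count depended on single arrays: leaving out replicate 1 or 2 of PY1 at 25 °C gave 6 or 4, leaving out either replicate of PY1 at 35 °C gave 5, and leaving out either replicate of met30-6 at 25 °C gave 0, where limma called 26 and 14 higher and 0 lower at an unadjusted p under 0.05. Leaving out either replicate of met30-6 at 35 °C gave 9.

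At 35 °C, met30-6 exceeded PY1 for 27 of the 66 transcripts and fell short of it for 7, beside 34.0% and 32.7% of all genes, so that the share of lower calls was well under that of all genes and the share of higher calls near it. In the same range of means, 37.7% of genes were higher and 37.3% lower. The median difference was 0.10, beside 0.02 over all genes. Calls over all genes fell, as did those of the 66, in each fit that left out an array at 35 °C. Without PY1 35 °C replicate 1 or 2 the counts were 15 and 2 or 19 and 1, and without met30-6 35 °C replicate 1 or 2 they were 16 and 4 or 20 and 1. With each array's median centred, 40 were higher and 2 lower. Of all genes, 2265 were then higher and 1564 lower, against 1852 and 1781 in the main fit, and their median was 0.1. Apart from *MRP8*, the largest value was again that of *MRP4*, 0.68 ± 0.09 (limma, adjusted p = 0.000698), followed by *MRP10* (0.40), *MRP51* (0.39), *MRP20*, the counterpart of L23 at the exit of the nascent chain (0.35), and *MRPL51* (0.35). These 5 calls held under all 19 alternatives. The lower transcripts were led by *RSM25* (−0.28 ± 0.05, limma, adjusted p = 0.00324), which held under all alternatives, and *MRPL15* (−0.24), whose limma call ended when replicate 2 of PY1 at 35 °C was left out (−0.215, adjusted p = 0.0829) or replicate 2 of met30-6 at 35 °C (−0.22, adjusted p = 0.0773). *MRPL6*, *RSM26*, *MRPL33* and *MRPL11* followed at −0.19, −0.18, −0.17 and −0.16, with calls that ended when array medians were centred. Their calls also ended in 5, 6, 4 and 6 of the fits that each left out 1 array. Of the genes called higher at 35 °C, 8 were also called higher at 25 °C, an overlap not counted over all genes.

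The interaction, which is the temperature difference in met30-6 minus that in PY1, asked whether the strains responded to 35 °C differently. Of the 66 genes, 12 were called, 3 higher and 9 lower, whereas 48.3% of all genes were called, 23.7% higher and 24.5% lower. At an unadjusted p under 0.05 the counts were 4 higher and 12 lower. The median was −0.05, beside 0.0025 over all genes, and the SD across genes was 0.19, beside 0.65 over all genes; 0 of the 66 and 591 of all genes reached 2-fold. Of the 54 genes that were not called, 51 had a 95% interval (unadjusted) within 0.5 of 0 on the log2 scale, and the intervals of the 54 reached from −0.55 to 0.60, so that differences of that size were not shown to be absent. With array medians centred the median was 0.02, that of all genes 0.08, and the calls were 8 higher and 6 lower. Of all genes, 1640 were then higher and 1198 lower, against 1294 and 1337 in the main fit. The balance of higher and lower genes thus depends on the scaling, among the 66 and among all genes. Among genes in the same range of means, 29.6% were called higher and 30.0% lower.

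**Figure D3:**
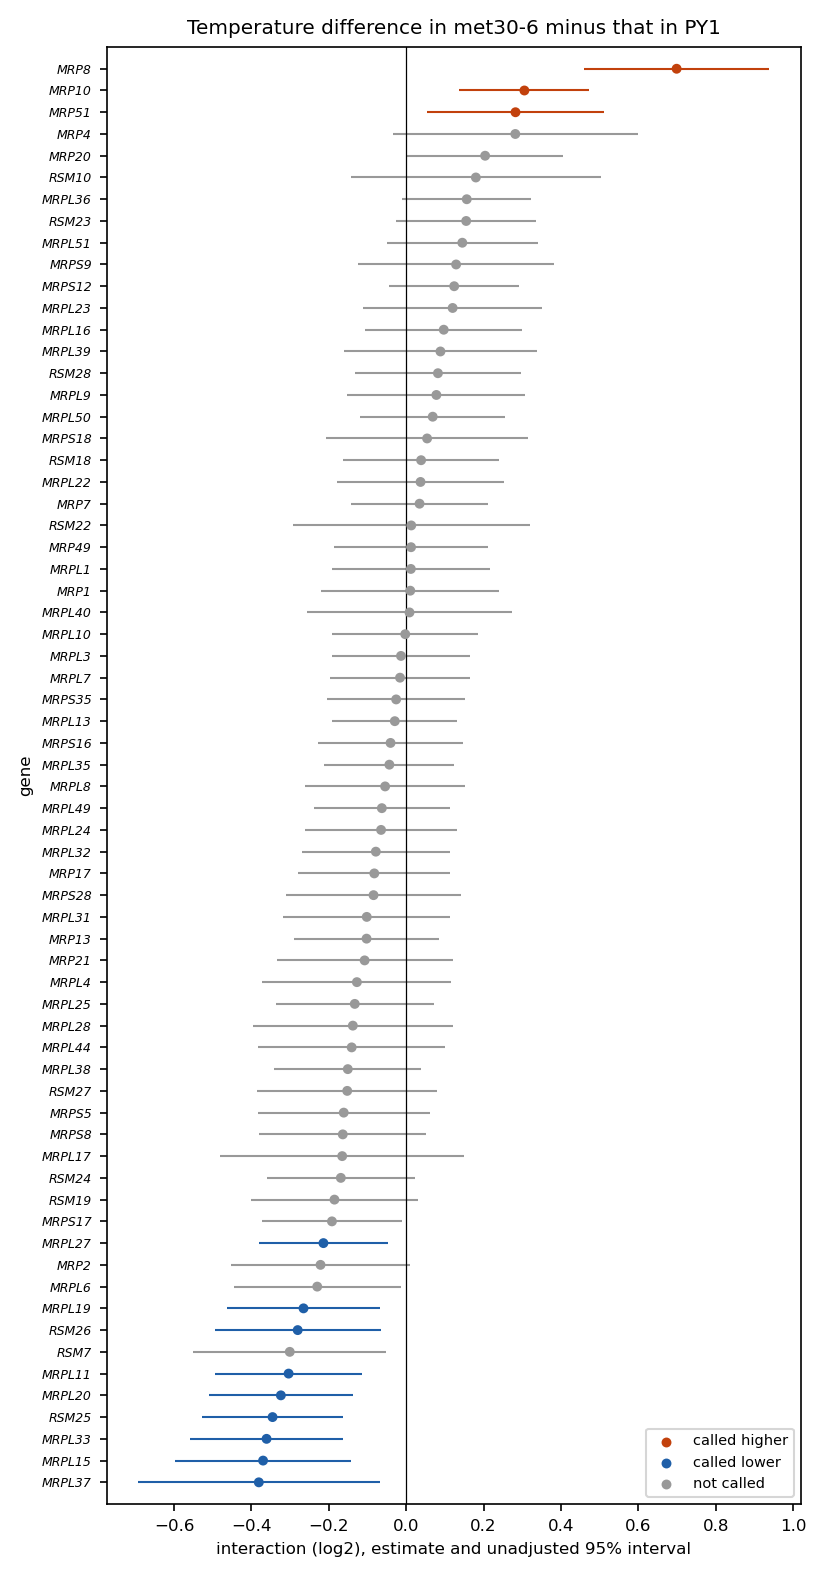
Interaction of each of the 66 genes on the log2 scale (temperature difference in met30-6 minus that in PY1; points, with unadjusted 95% intervals), in order of size; red marks genes called higher, blue genes called lower and grey genes not called. The 12 called genes run from −0.38 for MRPL37 to 0.70 for MRP8, and 3 of them are higher.

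Of the 9 genes with a lower response in met30-6, 7 belong to the large subunit and 2 to the small. These are 18.9% of the 37 large-subunit genes and 7.41% of the 27 small-subunit genes. Both shares were under the 24.5% of all genes called lower, and the subunits were not tested against each other. *MRPL33*, the counterpart of bacterial L30, read 11.62 and 11.56 at 25 °C and 11.81 and 11.86 at 35 °C in PY1. In met30-6 *MRPL33* read 11.73 and 11.82 at 25 °C and 11.69 and 11.63 at 35 °C. It rose in PY1 (0.24, limma, adjusted p = 0.0192), whereas in met30-6 the arrays at 35 °C lay below those at 25 °C by an amount that was not called (−0.12); the interaction was −0.36 ± 0.08 (limma, adjusted p = 0.0114). *MRPL37*, a protein found only in mitochondrial ribosomes, read 11.80 and 11.64 at 25 °C and 12.05 and 12.11 at 35 °C in PY1. In met30-6 *MRPL37* read 11.89 and 12.01 at 25 °C and 12.02 and 11.83 at 35 °C. The interaction of *MRPL37* was −0.38 ± 0.13 (limma, adjusted p = 0.0493). It rose in PY1 (0.36) and its met30-6 groups overlapped. *MRPL15* read 11.24 and 11.10 at 25 °C and 11.45 and 11.50 at 35 °C in PY1. In met30-6 *MRPL15* read 11.25 and 11.34 at 25 °C and 11.26 and 11.22 at 35 °C. The interaction of *MRPL15* was −0.37 ± 0.09 (limma, adjusted p = 0.0174). *MRPL20* read 11.05 and 11.08 at 25 °C and 11.30 and 11.38 at 35 °C in PY1. In met30-6 *MRPL20* read 11.26 and 11.29 at 25 °C and 11.25 and 11.20 at 35 °C. The interaction of *MRPL20* was −0.32 ± 0.08 (limma, adjusted p = 0.0134). Both encode proteins with no bacterial counterpart, and both rose in PY1 only by call, with met30-6 differences of −0.06 and −0.05 that were not called.

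*MRPL11*, the counterpart of L10, which carries the stalk proteins in bacteria, read 11.36 and 11.26 at 25 °C and 11.49 and 11.51 at 35 °C in PY1. In met30-6 *MRPL11* read 11.44 and 11.47 at 25 °C and 11.37 and 11.31 at 35 °C. Its interaction was −0.30 ± 0.08 (limma, adjusted p = 0.0191), and the PY1 arrays at 35 °C were its highest pair. *MRPL19*, given above, had a value of −0.27 (limma, adjusted p = 0.0357), and it rose in both strains, by 0.52 in PY1 and 0.26 in met30-6. *MRPL27*, which was named because it was called and lies outside the rule for named genes, read 11.74 and 11.69 at 25 °C and 12.08 and 12.07 at 35 °C in PY1. In met30-6 *MRPL27* read 11.83 and 11.85 at 25 °C and 11.97 and 12.01 at 35 °C. It too rose in both strains, by 0.36 and 0.15, and its interaction was −0.21 (limma, adjusted p = 0.0407). In the small subunit, *RSM25* had −0.35 ± 0.08 (limma, adjusted p = 0.00981) and *RSM26* −0.28 (limma, adjusted p = 0.0393), the 2 that fell in met30-6 and did not pass the test in PY1 (0.11 and 0.10). *RSM7* had −0.30, the largest value that was not called (limma, adjusted p = 0.0515).

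The 3 genes with a higher response in met30-6 were *MRP8*, *MRP10* and *MRP51*. *MRP51*, a small-subunit protein that acts genetically with the leaders of mitochondrial messages, read 11.93 and 11.79 at 25 °C and 11.86 and 11.96 at 35 °C in PY1. In met30-6 *MRP51* read 11.93 and 11.995 at 25 °C and 12.31 and 12.30 at 35 °C. The met30-6 arrays at 35 °C stood above the other 6 and the PY1 groups overlapped; its interaction was 0.28 ± 0.10 (limma, adjusted p = 0.0472). *MRP10* rose in both strains, by 0.26 in PY1 and 0.57 in met30-6, an interaction of 0.31 ± 0.07 (limma, adjusted p = 0.0115). *MRP4*, with a like value of 0.28, was not called (limma, adjusted p = 0.123). The calls of *MRPL33* and *RSM25* held under all 18 alternative settings and left-out arrays, and that of *MRP8* under the 17 run for it. Fewer of all genes, too, were called in the interaction in each fit that left out 1 array. That of *MRP10* ended without met30-6 25 °C replicate 1 (0.30, adjusted p = 0.0504) and that of *MRPL20* without met30-6 25 °C replicate 2 (−0.31, adjusted p = 0.055). *MRPL15* lost its call without PY1 35 °C replicate 2, met30-6 25 °C replicate 2 or met30-6 35 °C replicate 2 (−0.34, −0.32 and −0.35), and the other 6 lost it without 4 to 7 of the 8 arrays in turn. Leaving out replicate 1 or 2 of PY1 at 35 °C gave 7 or 5 calls. Leaving out replicate 1 or 2 of met30-6 at 25 °C gave 6 or 4, and leaving out replicate 2 of met30-6 at 35 °C gave 5.

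**Figure D4:**
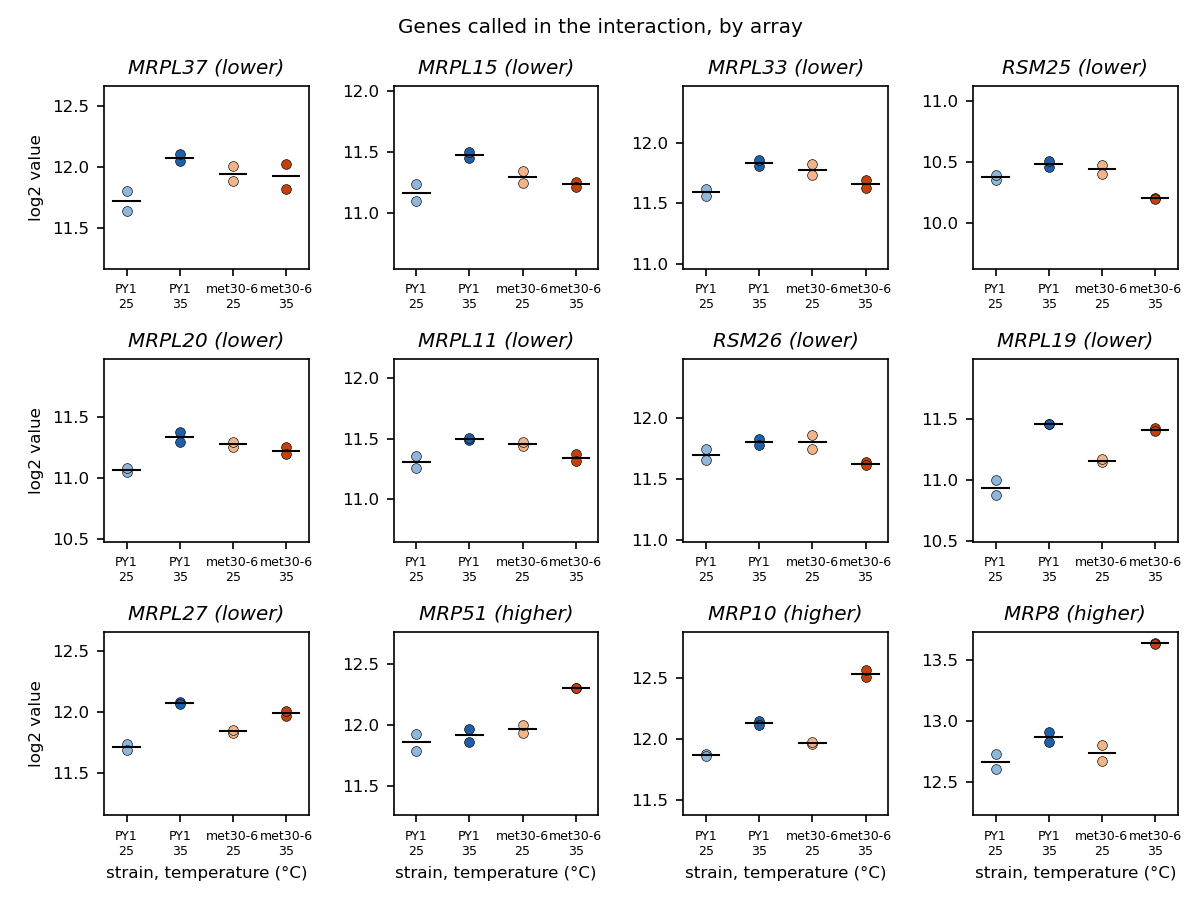
Log2 values (y axis, each panel spanning an equal number of log2 units) of the 12 genes called in the interaction, by strain and temperature in °C (x axis); each point is 1 array and each bar the mean of 2. In the 9 panels marked lower, the PY1 mean steps up from 25 to 35 °C. There the met30-6 mean steps up less in MRPL19 and MRPL27 and goes down in the others. In MRP8, MRP10 and MRP51 the met30-6 pair at 35 °C stands above all other arrays.

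*MRP8* had the largest met30-6 difference of the 66. It read 12.73 and 12.61 at 25 °C and 12.83 and 12.91 at 35 °C in PY1. In met30-6 *MRP8* read 12.68 and 12.81 at 25 °C and 13.65 and 13.63 at 35 °C. Both met30-6 arrays at 35 °C exceeded the other 6 without overlap. The difference in met30-6 was 0.90 ± 0.07, or 1.86-fold (limma, adjusted p = 4.96e-05), that in PY1 was 0.20 and not called (adjusted p = 0.0678), and the interaction was 0.70 ± 0.10 (limma, adjusted p = 0.00163). Without *MRP8*, the correlation between the strains' temperature differences was 0.58 (Pearson). *RSM22*, the assembly factor, read 10.65 and 10.495 at 25 °C and 10.70 and 10.85 at 35 °C in PY1. In met30-6 *RSM22* read 10.54 and 10.68 at 25 °C and 10.88 and 10.77 at 35 °C. It was called in 0 of the 5 comparisons by limma, and had an interaction of 0.01.

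Of the 66, 8 were called in none of the 5 comparisons, a count not made over all genes. These were *MRP13*, *MRPS28*, *MRPS35*, *RSM22* and *RSM24* of the small subunit or its assembly, and *MRPL4*, *MRPL17* and *MRPL25* of the large subunit. Apart from *MRPL4*, *MRPS35* and *RSM22*, they were listed after their values were seen. *MRPS35*, a small-subunit protein found only in mitochondria, read 10.67 and 10.74 at 25 °C and 10.74 and 10.76 at 35 °C in PY1. In met30-6 *MRPS35* read 10.71 and 10.71 at 25 °C and 10.76 and 10.70 at 35 °C. All 8 of its arrays lay within 0.1 log2 units. *MRPL4*, the counterpart of L29 near the exit of the nascent chain, read 10.44 and 10.42 at 25 °C and 10.55 and 10.72 at 35 °C in PY1. In met30-6 *MRPL4* read 10.62 and 10.60 at 25 °C and 10.74 and 10.63 at 35 °C. The PY1 difference of *MRPL4* was 0.21 and did not pass (limma, adjusted p = 0.0622). *MRP1*, the paralog of *RSM26*, read 11.51 and 11.61 at 25 °C and 11.78 and 11.79 at 35 °C in PY1. In met30-6 *MRP1* read 11.89 and 11.83 at 25 °C and 12.02 and 12.16 at 35 °C. It rose in both strains (0.22 and 0.23) with an interaction of 0.01, against −0.28 for *RSM26*; the difference between the paralogs was not tested. Group means also ran nearly in parallel for *MRPL10*, *MRPL40*, *MRPL1* and *MRP49*, whose interactions lay between −0.0025 and 0.0125, with adjusted p from 0.913 to 0.982.

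The genes were also divided by hand, from general knowledge, into 40 with bacterial counterparts and 24 found only in mitochondrial ribosomes. These had like medians in PY1, 0.23 and 0.22, with 25 and 14 higher and 0 lower, beside 26.2% higher and 10.4% lower of all genes. In met30-6 the medians were 0.25 and 0.12, with 27 higher and 1 lower against 12 higher and 2 lower, beside 38.8% and 29.3% of all genes. In the interaction 1 was higher and 3 lower of the former, and 1 higher and 6 lower of the latter, with medians of −0.03 and −0.12. Of all genes, 23.7% were higher and 24.5% lower there, and the 6 of 24 (25%) are close to that share; the classes were not tested against each other. Most of the 66 followed their mean profile over the 8 arrays, which was built from these same genes. Each gene's correlation with that mean, its own values included, had a median of 0.88, and 43 exceeded 0.8. Neither figure was computed over all genes, so the profile was not shown to be particular to the 66. The profile of 12 genes correlated under 0.5, the lowest being *MRP13* at −0.50, *RSM25* at −0.45 and *MRPL17* at −0.44. Outside the set, the genes whose 8 array values followed this mean profile most closely, of 3859 with enough spread, were *TPN1*, a vitamin B6 transporter gene (r = 0.994), *AIM36* (0.994), *RCH1* (0.990), the phospholipase gene *PLB1* (0.990) and the fumarate reductase gene *FRD1* (0.988). All 8 points of such a correlation share their arrays, so it is a description only. The *PLB1* transcript differed by 0.89 in PY1 and 0.71 in met30-6 between the temperatures, more than any of the 64 ribosomal protein genes.

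The proteins of the mitochondrial ribosome whose symbols do not follow the rule, and the rest of the translation apparatus, were described from lists chosen with earlier results known. Of all genes, 26.2% were called higher and 10.4% lower in PY1, 38.8% and 29.3% in met30-6, and 23.7% and 24.5% in the interaction. Of 13 further ribosomal proteins, 8 rose and 0 fell in PY1 and 8 rose and 0 fell in met30-6, with medians of 0.27 and 0.23, and 1 was higher and 1 lower in the interaction. These were *PET123* (0.33) and *FYV4* (−0.32), both of the small subunit, and *MHR1*, which also serves in mitochondrial DNA recombination, rose by 0.41 and 0.41. Of 12 translation factor genes, 5 rose in PY1 and 7 in met30-6 and 0 fell, among them *TUF1*, the elongation factor Tu (0.35 and 0.60), and *MRF1*, the release factor (0.59 and 0.33). *MEF2*, which encodes an elongation factor G homolog held to recycle ribosomes, stood at −0.83 in the strain comparison at 25 °C (called lower in met30-6) and had an interaction of 0.70 (limma, adjusted p = 0.00216). The 13 genes of ribosome assembly and rRNA modification had 5 higher and 0 lower in PY1, and 3 higher and 4 lower in met30-6. The met30-6 counts were 23.1% and 30.8%, beside 38.8% and 29.3% of all genes. *GEP3*, which encodes a GTPase of small-subunit assembly, rose in PY1 (0.37) and fell in met30-6 (−0.29), an interaction of −0.66 (limma, adjusted p = 0.0023), while *MTG1*, a GTPase of the large subunit, had 0.39.

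Of 14 activators of single mitochondrial messages, 2 rose and 1 fell in PY1, and 5 rose and 2 fell in met30-6. The met30-6 counts were 35.7% and 14.3%. Of all genes, 26.2% were called higher and 10.4% lower in PY1, and 38.8% and 29.3% in met30-6. *CBP1*, which protects the *COB* message, fell in PY1 (−0.24) and rose in met30-6 (0.86), an interaction of 1.09 ± 0.10 (limma, adjusted p = 0.00029). Of 14 mitochondrial tRNA synthetase genes, 6 rose and 1 fell in PY1 and 8 rose and 1 fell in met30-6; the one that fell in both was *MST1*, the threonine enzyme (−0.35 and −0.24). Of 10 genes of mitochondrial DNA and transcription, 2 were higher and 4 lower in the interaction, beside 23.7% and 24.5% of all genes. Among them were *ABF2*, which packages the DNA, at 0.41, *RPO41*, the RNA polymerase, at 0.29, and its partner factor *MTF1* at −0.31. Of 20 protein import genes, 6 rose and 0 fell in PY1, 6 rose and 6 fell in met30-6, and 0 were higher and 3 lower in the interaction. The met30-6 counts were 30% each, beside 38.8% and 29.3% of all genes. Among regulators, *HAP4*, the limiting subunit of the activator of respiratory genes, fell in PY1 (−0.28) and rose in met30-6 (0.19), an interaction of 0.47 (limma, adjusted p = 0.00301), whereas *PUF3* was dim, with a mean of 5.44, and was called in 0 of the 5 comparisons by limma.

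The genes of the other ribosome of the cell and of the respiratory chain are given by counts and medians beside those of the mitochondrial ribosome. The shares of all genes called higher and lower were 26.2% and 10.4% in PY1 and 38.8% and 29.3% in met30-6. They were 23.7% and 24.5% in the interaction, and 6.94% and 5.95% between the strains at 25 °C. Of 127 cytosolic ribosomal protein genes, 1 rose and 2 fell in PY1, whereas in met30-6 3 rose and 68 fell, with a median of −0.19 and an interaction that was lower for 55 and higher for 1; near-identical copies of these genes can share signal. Of 50 genes of nucleolar ribosome assembly, 0 rose and 6 fell in PY1 and 0 rose and 50 fell in met30-6, with a median of −1.09. The RNA helicase gene *HAS1* fell by 1.69 on the log2 scale in met30-6 and was at −0.17 in PY1, where it was not called. Of 36 genes of the respiratory chain and ATP synthase, whose mitochondrial subunits the mitochondrial ribosome makes, the strain comparison at 25 °C called 28 lower and 0 higher in met30-6, with a median of −0.43. Of the same 36, 29 rose and 1 fell in met30-6 at 35 °C, with a median of 0.52. Both comparisons use the met30-6 arrays at 25 °C, so these results are not independent. Between the strains at 35 °C, 12 of the 36 were higher and 7 lower in met30-6, with a median of 0.03. Of all genes, 34.0% were higher and 32.7% lower there. In PY1, 8 of the 36 rose and 2 fell, and in the interaction 26 were higher and 1 lower. *SDH2*, the iron-sulfur subunit of succinate dehydrogenase, had means of 11.93 and 11.78 in PY1 at 25 and 35 °C, and of 11.10 and 12.35 in met30-6. The signs of the median thus differed between these groups: at 25 °C the mitochondrial ribosomal protein genes were higher in met30-6 (0.15) where the respiratory genes were lower, and in met30-6 at 35 °C their median difference was 0.22 where that of the nucleolar genes was negative. These are medians of lists, given without a test of one list against another.

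**Figure D5:**
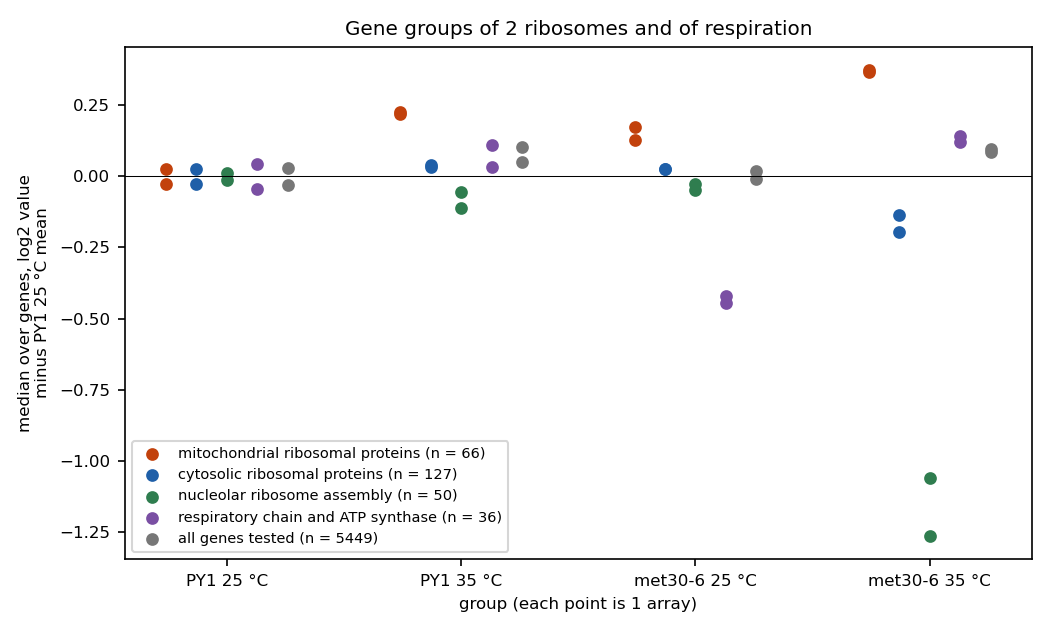
Median over the genes of each list (log2 value minus the gene's mean on the 2 PY1 arrays at 25 °C; y axis) on each of the 8 arrays (points), by group (x axis), for mitochondrial ribosomal proteins (n = 66), cytosolic ribosomal proteins (n = 127), nucleolar ribosome assembly (n = 50), the respiratory chain and ATP synthase (n = 36) and all genes (n = 5449). The mitochondrial ribosomal protein genes lie at 0.22 and 0.23 in PY1 at 35 °C, at 0.129 and 0.175 in met30-6 at 25 °C and at 0.37 on both met30-6 arrays at 35 °C, where the nucleolar list lies below −1.

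With 2 arrays a group, the smallest difference of the 66 genes that was called in any comparison was 0.14 on the log2 scale and the largest that was not called was 0.30.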

How the data were processed

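The authors deposited 1 table, taken here to hold log2 values, of 5716 probe sets on 8 arrays. The log base was inferred from their range, so every fold rests on base 2. Their background correction, summarisation and scaling were not given in the sources used here. Detection calls were not used. Probe sets were named through the platform's annotation, with 12 symbols updated through gene identifiers, and 218 without a name were left out. The brightest probe set was kept for the 47 genes with several, which left 5449 genes. Gene order on chromosomes was taken from the R64 assembly.

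Group means (4) were fitted with limma 3.58.1 in R 4.3.3, with 4 residual and 2.7 prior degrees of freedom, and the calculation was tested on simulated data. Two-sided p-values were Benjamini-Hochberg adjusted over 5449 genes in each of 5 comparisons, with calls at an adjusted p under 0.05. Members and lists were chosen with earlier results of these data known. Genes were named by a rule that took, per comparison, the 6 higher and the 6 lower called members with the largest differences, the 5 with the highest and the 5 with the lowest means, the 6 nearest to no interaction, *MRP8*, *MRP1* and *RSM26*, up to 3 called genes in each direction per related list, and the 5 genes of most similar profile. Alternatives were other scalings, filters, model settings, a replicate block and leaving out each array. Replicates with the same number did not vary together (Pearson's r of their deviations between −0.182 and 0.109), so the block is given only among the alternatives.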

Additional observations from a re-analysis of the deposited data

Results flagged for a closer look

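The temperature difference itself was found to differ between the strains for 12 of the 66 genes, by limma's interaction test at an adjusted p under 0.05, whereas 48.3% of all 5449 genes were called, so the share among the 66 was below that of all genes. It was higher in met30-6 for *MRP8* (0.699 on the log2 scale), *MRP10* (0.3055) and *MRP51* (0.2825). It was lower in met30-6 for the large-subunit genes *MRPL37* (−0.381), *MRPL15* (−0.37), *MRPL33* (−0.361), *MRPL20* (−0.324), *MRPL11* (−0.304), *MRPL19* (−0.2655) and *MRPL27* (−0.214), and for the small-subunit genes *RSM25* (−0.3455) and *RSM26* (−0.2805). Of these, *MRPL33* and *RSM25* passed under all 18 alternatives, and *MRP8* under the 17 run for it.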

How the results depend on the processing

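The median of the 66 genes kept its sign under every alternative but 1: with array medians centred, the interaction median was 0.024, while that of all genes was 0.0755. Centring also gave medians of 0.165 for PY1 heat and 0.179 for the strains at 35 °C, 19 calls at 25 °C, and splits of 8 higher and 6 lower in the interaction and 40 and 2 at 35 °C. Over all genes it moved the first 2 medians from 0.075 to 0.02 and from 0.0185 to 0.1, and the calls at 25 °C from 702 to 911. Quantile scaling gave medians of 0.173 and 0.167 for PY1 and met30-6 heat and 22 calls at 25 °C. Over all genes those medians were −0.012 and −0.0065, and the calls at 25 °C were 1082. The replicate block gave 3 calls at 25 °C and 7 in the interaction, and did not move the other 3 counts by over 1.5 times, though it ended the calls of *MRP51*, *MRPL19*, *MRPL27*, *MRPL37* and *RSM26* in the interaction. A variance trend gave 18 calls at 25 °C, and a fit to genes in the same range of means, added after the data were seen, gave 17. A fit to only the arrays compared gave 0 (limma, 26 at an unadjusted p under 0.05) and 25 for PY1 heat. Calls over all genes at 25 °C moved too, from 702 to 528 with the replicate block, 944 with the variance trend and 411 with only the arrays compared. The fit to only the arrays compared called 1454 of all genes for PY1 heat, against 1998 in the main fit. Leaving out 1 array at a time gave counts of 19 to 36 for PY1 heat, 26 to 43 for met30-6 heat, 0 to 9 at 25 °C, 17 to 35 at 35 °C and 4 to 12 in the interaction. The medians then ran from 0.203 to 0.246, 0.194 to 0.2425, 0.129 to 0.175, 0.089 to 0.130 and −0.0765 to −0.034. Calls over all genes fell too wherever an array of a compared group was left out. No background signal was used, so no gene could be called undetected. Leaving out the dimmest 25% of genes by mean gave 44 calls for PY1 heat and 15 at 25 °C, beside 1679 and 686 over all the genes kept.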
